A study of Mus musculus with 7 samples.

Results

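In total 11785 intergenic regions of the mouse liver genome were open to Benzonase, Cyanase and DNase I alike, out of 94491 accessible regions on all chromosomes and 90879 on the 19 autosomes. The regions were defined by the positions of hotspots, which are stretches of the genome with a high density of sequence tags cut by a nuclease. Hotspots of the 3 lists that shared at least 1 bp were merged, and a merged region was kept if it held hotspots of all 3 nucleases, lay on an autosome, was under 2000 bp wide, lay more than 1 kb from every protein-coding transcription start site (TSS) and overlapped no protein-coding transcript body. Because the members were chosen by the hotspots themselves, the joint openness is a description and no test bears on it.

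All livers came from male C57BL/6 mice of 8 week of age with no other treatment named. In the tissue accessible chromatin (TACh) assay, pulverised frozen liver was digested with the bacterial endonuclease Benzonase or with Cyanase, each at 0.25, 1 and 4 U with 1 sample per dose, and the DNase I assay, listed as 1 sample although its tags were combined from replicates, used nuclei purified from fresh liver. The nuclease and the handling of the tissue therefore cannot be told apart. Tags of a nuclease were pooled before hotspots were called, so there was 1 list per nuclease, with positions but no tag counts, and no spread between animals could be given. A whole liver holds hepatocytes together with Kupffer, endothelial, stellate and bile duct cells, and a hotspot does not say in which of them the DNA was open.

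Open chromatin far from promoters usually marks enhancers, where transcription factors displace nucleosomes and act on promoters at a distance, or insulators bound by CTCF, which organises chromatin into loops. In hepatocytes the enhancers are known for joint binding of HNF4A (a nuclear receptor that maintains hepatocyte identity), FOXA proteins (pioneer factors that open liver chromatin), C/EBP proteins (regulators of metabolic genes), HNF1 and HNF6. GC-rich stretches that escape methylation, called CpG islands, are typical of promoters and rare at enhancers.

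The sequences of 9 members are shown first, each as the 200 bp around the centre of the region on the plus strand of mm9, with motif letters in capitals. The first 3 are members assigned to genes of the hepatocyte list that held the HNF4A letters CAAAGTCCA, which were picked after the motif shares had been seen. They lay 21096 bp from the TSS of Alb (albumin, the main plasma protein), 52087 bp from that of Foxa2 (a FOXA pioneer factor) and 58050 bp from that of Apob (the protein of very low density lipoprotein).
Alb, chr5:90868300-90868499: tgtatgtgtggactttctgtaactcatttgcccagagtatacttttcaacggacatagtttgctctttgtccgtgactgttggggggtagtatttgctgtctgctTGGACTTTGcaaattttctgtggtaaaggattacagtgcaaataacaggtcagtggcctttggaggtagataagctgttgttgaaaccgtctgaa
Foxa2, chr2:147819113-147819312: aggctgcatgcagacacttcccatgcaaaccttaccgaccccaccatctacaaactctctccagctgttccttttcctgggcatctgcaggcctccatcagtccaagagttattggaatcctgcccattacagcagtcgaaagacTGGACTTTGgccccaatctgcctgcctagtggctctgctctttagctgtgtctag
Apob, chr12:7925862-7926061: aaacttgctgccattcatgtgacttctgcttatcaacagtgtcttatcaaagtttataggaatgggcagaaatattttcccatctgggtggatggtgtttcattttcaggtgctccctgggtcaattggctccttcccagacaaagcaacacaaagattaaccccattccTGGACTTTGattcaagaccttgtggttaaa

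The next 4 are members near hepatocyte genes with letters of 2 different liver factors in the window. Capitals mark FOXA (TGTTTAC or TATTTAC), C/EBP (TTGCNNAA) and, in the first, STAT5 (TTCNNNGAA) letters on either strand. They lay 3094 bp from the TSS of Alb, 5698 bp from that of Cps1 (the entry enzyme of the urea cycle), 15310 bp from that of Cebpa (C/EBP alpha) and 17848 bp from that of Insig2 (a sterol sensor of the endoplasmic reticulum).
Alb, chr5:90886359-90886558: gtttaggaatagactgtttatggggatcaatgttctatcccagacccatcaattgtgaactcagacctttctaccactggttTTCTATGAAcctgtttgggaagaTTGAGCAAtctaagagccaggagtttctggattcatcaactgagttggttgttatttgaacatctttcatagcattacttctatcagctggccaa
Cps1, chr1:67163236-67163435: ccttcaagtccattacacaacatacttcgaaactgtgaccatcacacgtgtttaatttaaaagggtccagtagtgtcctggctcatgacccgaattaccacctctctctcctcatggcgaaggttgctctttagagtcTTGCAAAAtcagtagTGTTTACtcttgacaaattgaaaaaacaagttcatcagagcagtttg
Cebpa, chr7:35919811-35920010: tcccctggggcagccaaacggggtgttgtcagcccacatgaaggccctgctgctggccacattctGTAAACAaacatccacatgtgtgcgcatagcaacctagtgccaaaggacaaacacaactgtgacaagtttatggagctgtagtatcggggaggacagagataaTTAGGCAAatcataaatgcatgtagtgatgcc
Insig2, chr1:123247247-123247446: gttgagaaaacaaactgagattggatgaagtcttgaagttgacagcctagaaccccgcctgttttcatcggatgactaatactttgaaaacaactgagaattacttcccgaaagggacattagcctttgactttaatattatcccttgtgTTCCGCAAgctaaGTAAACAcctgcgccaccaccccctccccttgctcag

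The last pair held a CTCF match at the very centre of the region, and capitals mark it. The nearest TSSs were those of Slc30a10 (a manganese exporter), 132664 bp away, and of Ctcf (the gene of the CTCF protein), 13685 bp away.
Slc30a10, chr1:187411733-187411932: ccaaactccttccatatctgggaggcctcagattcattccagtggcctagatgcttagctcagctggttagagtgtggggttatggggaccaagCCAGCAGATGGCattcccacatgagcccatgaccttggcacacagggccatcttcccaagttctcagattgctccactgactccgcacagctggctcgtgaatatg
Ctcf, chr8:108146372-108146571: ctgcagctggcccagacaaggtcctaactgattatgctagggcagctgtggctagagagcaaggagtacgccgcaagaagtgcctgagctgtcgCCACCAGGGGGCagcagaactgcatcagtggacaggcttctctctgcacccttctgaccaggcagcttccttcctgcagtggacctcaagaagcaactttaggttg

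In these windows the FOXA and C/EBP letters stood close together in 2 cases, within the Cps1 and Insig2 windows, and farther apart at Cebpa. In the Cps1 window C/EBP letters covered bases 139 to 146 and FOXA letters bases 154 to 160, and in the Insig2 window C/EBP letters covered bases 151 to 158 and FOXA letters bases 164 to 170, counted from the 5′ end. In the printed Cebpa window FOXA letters covered bases 66 to 72 and C/EBP letters bases 169 to 176. A window of the set chosen for most liver motifs, 8355 bp from the TSS of Cebpa and not printed, also held both. Its C/EBP letters covered bases 49 to 56 and its FOXA letters ended at base 107. Of the other windows of this set, 3 are not printed either. These 3 lay 75850 bp from Cebpb, 2988 bp from Insig2 and 10063 bp from Prox1. They held FOXA and STAT5, FOXA and HNF6, and nuclear receptor DR1 and STAT5 letters, respectively.

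Of the 90879 autosomal regions, 36943 (40.7%) held hotspots of all 3 nucleases, 34409 of these were under 2000 bp wide and 9010 of those lay within 1 kb of a TSS. The remainder comprised the 11785 intergenic regions, or 13.0% of all autosomal regions, and 13614 intragenic regions. The members held 12041 of the 59040 autosomal Benzonase hotspots (20.4%), 12099 of the 55904 Cyanase hotspots (21.6%) and 11974 of the 69897 DNase I hotspots (17.1%). Just inside the width limit were regions of 1998 bp (nearest Trp53inp2) and 1999 bp (nearest Rgs8), and just outside were regions of 2000 bp (nearest Hpd) and 2001 bp (nearest Cat). In all, 342 wider regions met every other criterion. Just inside the TSS limit were regions at 1003 bp (Amotl2) and 1008 bp (Lrig3), and just outside were 2 regions at 999 bp (Tcea2 and Mme). For comparison, 3 kinds of region of the same width limit and TSS distance were used: the 13614 intragenic regions with all 3 nucleases, 12199 intergenic regions with DNase I alone and 3274 intergenic regions with Benzonase and Cyanase but not DNase I.

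In GC content the members stood above the sequence around them but below the mean of all autosomal regions (48.9%). Their GC content averaged 47.2% (SD 5.26 over 11785 regions, range 27.0 to 70.8%), against 44.7% in the 5000 bp on each side, a mean difference of 2.48 percentage points (SD 4.19). Of the members, 8628 (73.2%, Wilson 95% interval 72.4 to 74.0%) were richer in GC than their flanks. Intragenic regions with all 3 nucleases differed from their flanks by 1.86 points on average, and 70.3% were richer. With Benzonase and Cyanase alone the values were 8.47 points and 93.9%, and with DNase I alone -0.41 points and 45.6%. Along the region GC content rose to 49.4% in the 100 bp on either side of the centre and came down to 45.02% at 450 bp from it.

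GC content ordered the intergenic regions by nuclease. Members exceeded regions open to DNase I alone, which averaged 42.2%, by 4.99 percentage points (95% interval 4.85 to 5.12), with the same sign on 19 of 19 autosomes. They were below regions with Benzonase and Cyanase alone, which averaged 53.4%, (difference -6.25 percentage points, 95% interval -6.47 to -6.03), again on 19 of 19 autosomes. Intragenic regions with all 3 nucleases averaged 47.5%, and the difference of -0.29 points (-0.42 to -0.16) had that sign on only 11 of 19 autosomes and was smaller than its SD of 0.67 over autosomes. In the central 150 bp it was 0.04 (-0.14 to 0.22). These intervals, like all others here, cover counting error over regions only. Neighbouring regions share sequence composition, and the lists were not replicated over animals.

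**Figure D1:**
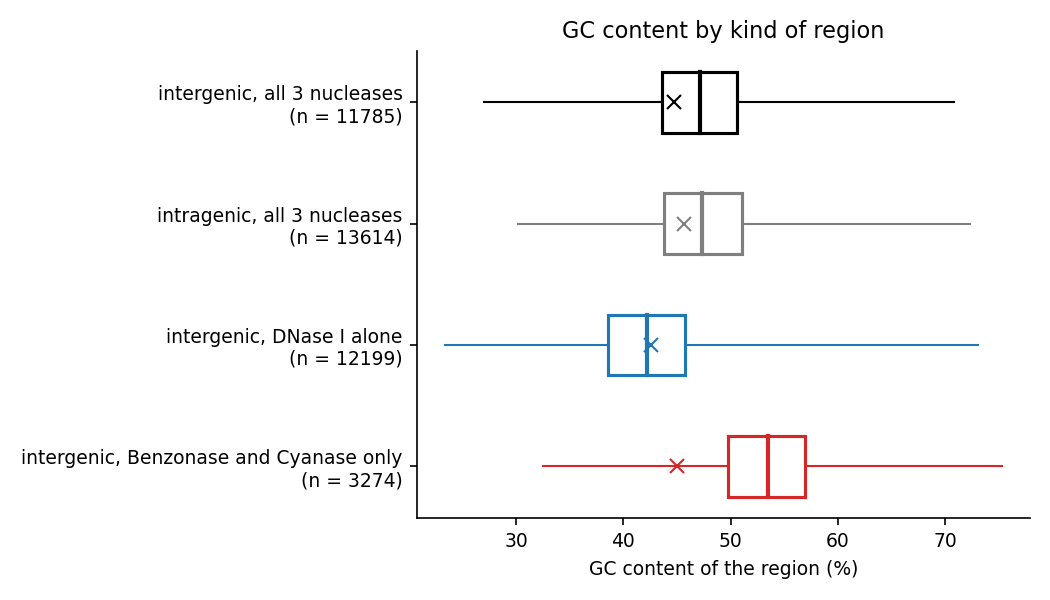
GC content in percent (x axis) of each kind of region, with the range as a line, quartiles as a box, the median as a bar and the mean GC content of the 5000 bp on each side as a cross. Regions open to all 3 nucleases (mean 47.2%) sit between those of DNase I alone (42.2%) and those of Benzonase and Cyanase without DNase I (53.4%).

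Within the members the 3 nucleases marked nearly the same DNA. In 11243 members (95.4%) each nuclease had exactly 1 hotspot. In these the median width was 691 bp for Benzonase (quartiles 593 and 855), 660 bp for Cyanase (568 and 809) and 734 bp for DNase I (625 and 883), and the whole region had a median of 814 bp over all members. Hotspot centres lay a median of 24 bp apart between Benzonase and Cyanase, 40.5 bp between Benzonase and DNase I and 40 bp between Cyanase and DNase I. The overlap relative to the union of both hotspots had a median of 90.0%, 82.1% and 81.3% for the same pairs. The stretch covered by all 3 had a median of 602 bp, or 76.0% of the region, and was at least 200 bp long in 99.1% of these members, while in 28 no base was covered by all 3. These positions were used to choose the members, and they are given as a description.

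The DNase I hotspot was the widest of the 3 in 6002 members (53.4%), Benzonase in 3511 (31.2%) and Cyanase in 1673 (14.9%). The rank turned with GC content. In the quartile of members lowest in GC (27.0 to 43.6%) the median DNase I hotspot measured 773 bp against 634 bp for Benzonase and 609 bp for Cyanase, and DNase I was widest in 82.7% and narrowest in 7.29%. In the quartile highest in GC (50.6 to 70.8%) DNase I measured 682 bp against 787 and 743 bp, and was widest in 21.7% and narrowest in 61.2%. The median ratio of the DNase I width to the mean of the other two went from 1.23 through 1.10 and 1.02 to 0.909 over the 4 quartiles. Across 11243 members, Pearson's r of GC content with the log2 of that ratio was -0.506, a description over regions that share the 3 pooled lists.

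**Figure D2:**
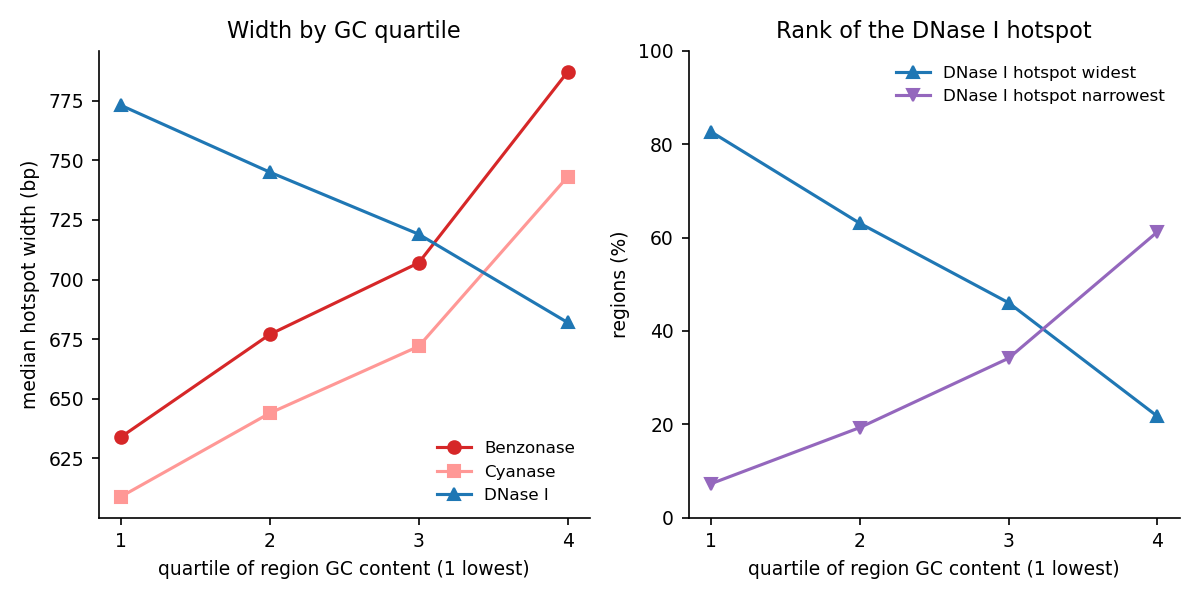
Median hotspot width in bp per nuclease (left) and percent of members in which the DNase I hotspot was the widest or the narrowest of the 3 (right), by quartile of region GC content, for the 11243 members with 1 hotspot of each nuclease. DNase I falls from 773 to 682 bp while Benzonase rises from 634 to 787 bp.

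The same contrast held base by base inside those members whose hotspot edges differed enough to compare. In 1331 of the 11785 members at least 50 bases were covered by DNase I alone and at least 50 by Benzonase or Cyanase without DNase I. The hotspot edges set these bases, so the values describe this subset and not the other members. The DNase I bases averaged 42.4% GC and the others 48.8%, while the stretch shared by all 3 averaged 48.6%. The paired difference was -6.41 percentage points (SD 10.4, 95% interval -6.97 to -5.86), below 0 in 996 of the 1331 members (74.8%) and on 19 of 19 autosomes. The Tat locus (tyrosine aminotransferase, a hormone-inducible enzyme of amino acid breakdown) held an example of the wide DNase I kind: its member 10395 bp upstream measured 1714 bp in DNase I, 959 bp in Benzonase and 891 bp in Cyanase, at 43.1% GC. At Foxa2 the member 4691 bp downstream of the TSS, at 55.1% GC, measured 835 bp in DNase I, 1279 bp in Benzonase and 1780 bp in Cyanase.

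Motifs of liver factors were concentrated at the centre of the members. In the central 200 bp, HNF4A letters were present in 252 members (2.14%, 1.89 to 2.42%), against 1.32% of all autosomal regions under 2000 bp and 0.263% of windows 2000 bp to either side, 8.13 times the flanking share. C/EBP letters were present in 1951 (16.6%; all regions 13.3%, flanks 8.20%) and FOXA letters in 1218 (10.3%; all regions 8.37%, flanks 5.83%). HNF1 (GTTAATNAT) was found in 266 (2.26%; all regions 1.45%, flanks 0.560%), HNF6 (ATTGATT) in 658 (5.58%; all regions 5.62%, flanks 2.72%) and NFI, matched by its palindromic site, in 224 (1.90%; all regions 1.58%, flanks 0.467%). The nuclear receptor DR1 repeat was in 79 (0.670%; all regions 0.57%, flanks 0.165%). STAT5 letters were in 802 (6.81%; all regions 6.33%), and the difference from flanking windows, 0.35 points (-0.20 to 0.91), included 0. Matches on both strands were counted, and the motifs seldom overlapped: the most frequent pair, C/EBP and HNF6, shared bases in 12 places. A match is a run of letters and not a measured binding site.

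Against their own flanks the members were higher by 8.36 percentage points for C/EBP (7.60 to 9.11), 4.50 for FOXA (3.88 to 5.12), 2.86 for HNF6 (2.40 to 3.32) and 1.88 for HNF4A (1.61 to 2.15), with the sign shared by 19, 19, 19 and 18 of the 19 autosomes. The matches peaked within 100 bp of the centre. HNF4A stood at 0.104 and 0.116 matches per kb in the bins to the left and right of the centre, at 0.0144 and 0.0339 at 250 bp and at 0.0102 and 0.0153 at 450 bp. C/EBP reached 0.948 against 0.450 at 450 bp, and CTCF stood at 0.0967 and 0.117 beside the centre and at 0.0153 and 0.0246 at 450 bp.

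**Figure D3:**
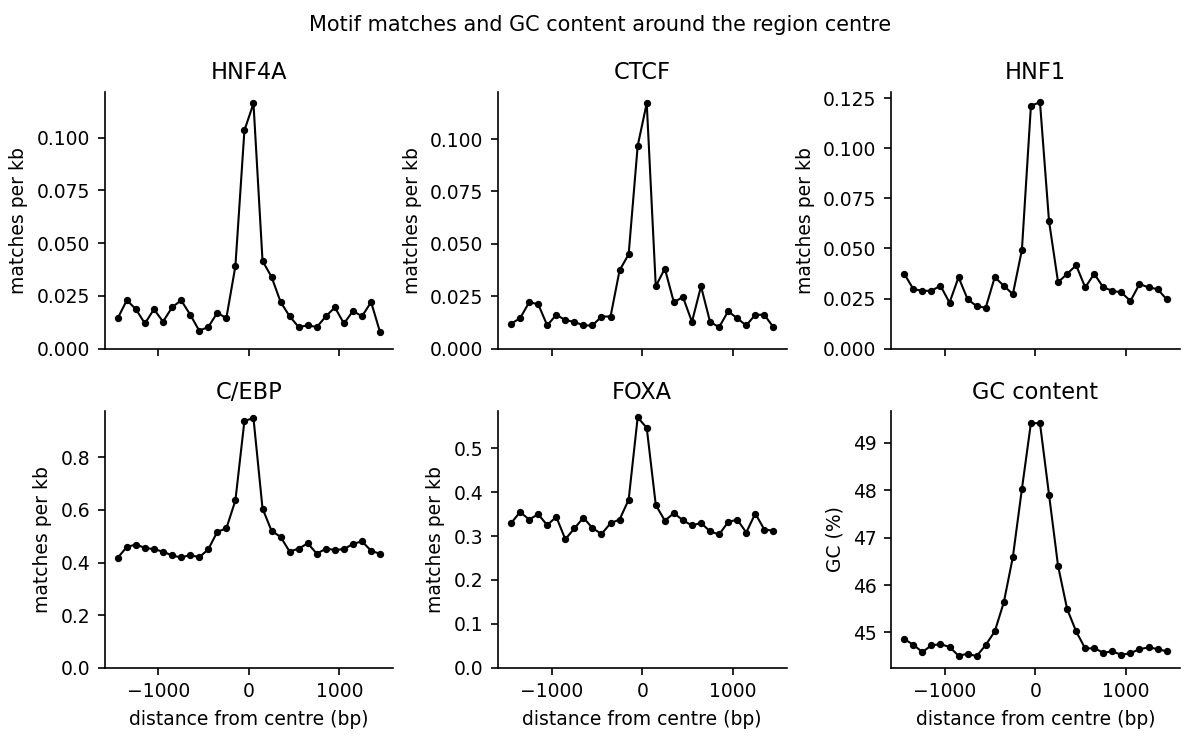
Matches per kb of HNF4A, CTCF, HNF1, C/EBP and FOXA letters, and GC content in percent, in bins of 100 bp by distance from the centre of the 11785 regions (x axis, bp). All 6 peak in the bins beside the centre, where C/EBP reached 0.948 matches per kb and GC content 49.4%.

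Of the 11785 members, 7254 (61.6%) held none of the 8 liver motifs in the central window, 3696 held 1, 755 held 2, 76 held 3 and 4 held at least 4. The share with none was 63.1% in intragenic regions with all 3 nucleases, 51.0% with DNase I alone and 84.0% with Benzonase and Cyanase alone. The share with 2 was 6.41% in members and 5.79%, 10.4% and 1.56% in these other kinds of region. The commonest pair was FOXA with C/EBP, in 226 members. C/EBP letters were in 18.6% of members with FOXA letters and in 16.3% of those without.

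The 10 motifs outside the liver group were present in 0.110 to 5.59% of members. CTCF, recognised by its core site, was in 232 members (1.97%; all regions 2.05%, flanks 0.301%). Of the factors that answer signals, AP-1 (TGACTCA or TGAGTCA) was in 659 (5.59%; all regions 4.84%), the cyclic AMP element CRE (TGACGTCA) in 60 (0.509%; all regions 0.528%) and the glucocorticoid receptor site in 108 (0.916%; all regions 0.603%). Of the promoter motifs, ETS (CCGGAAG) was in 231 (1.96%; all regions 2.53%), SP/KLF (GGGCGGGG or GGGGCGGG) in 390 (3.31%; all regions 5.18%), NRF1 (GCGCATGCG) in 21 (0.178%; all regions 0.289%) and YY1 (AAGATGGCG) in 13 (0.110%; all regions 0.415%). The E-box CACGTG, bound by transcription factors of the clock and of cell growth, was in 534 (4.53%, all regions 4.32%). PU.1 (GAGGAAGT), of macrophages, was in 229 (1.94%, all regions 2.25%). YY1 was no more frequent in members than in their flanking windows (0.165%).

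Compared with intergenic regions open to DNase I alone, members had fewer FOXA (13.6% there, difference -3.25 points, -4.07 to -2.43), C/EBP (20.4%, -3.83, -4.81 to -2.85) and HNF6 letters (12.1%, -6.52, -7.23 to -5.81). These 3 motifs are rich in A and T, and the DNase I regions were poorer in GC. Whether base composition set the differences was not tested. In windows of 40 to 50% GC, a range chosen after the shares had been seen (5308 members and 6820 DNase I regions), FOXA was in 13.0% and 12.2% (difference 0.88, -0.31 to 2.08) and C/EBP in 20.9% and 19.7% (1.17, -0.27 to 2.62) and both intervals included 0. HNF6 was lower in members over that range (7.39% and 9.34%, difference -1.96, -2.94 to -0.96), and the DNase I regions lay more in its lower part. Below 40% GC (965 members and 3978 DNase I regions) the HNF6 difference was -6.76 (-9.15 to -4.16) and the FOXA difference -0.66 (-3.24 to 2.13). At 40 to 45% GC (1977 members and 3874 DNase I regions) the HNF6 difference was -2.36 (-3.95 to -0.69) and the FOXA difference 2.05 (0.14 to 4.02), and at 45 to 50% (3331 and 2946) they were -0.11 (-1.33 to 1.10) and 1.33 (-0.21 to 2.86). HNF1 was higher in members at 40 to 50% GC (2.84% and 1.51%, 1.33, 0.81 to 1.88), although over all windows it did not differ (0.02, -0.36 to 0.40). CTCF was lower (1.06% and 2.29%, -1.23, -1.68 to -0.78), whereas over all windows its difference of -0.07 (-0.43 to 0.28) included 0. STAT5 was lower in members over all windows (6.81% and 10.2%, -3.43, -4.14 to -2.73) and at 40 to 50% GC (7.80% and 10.4%, -2.61, -3.63 to -1.58). Also lower at 40 to 50% GC were AP-1 (-1.80, -2.66 to -0.92) and PU.1 (-1.29, -1.83 to -0.75). The glucocorticoid receptor site was higher there (0.59, 0.29 to 0.92). The HNF4A difference was 0.34 points over all windows of 200 bp (-0.01 to 0.70), 0.53 (0.00 to 1.09) at 40 to 50% GC and 0.59 (0.19 to 1.00) over windows of 400 bp.

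Against regions with Benzonase and Cyanase alone, members more often held HNF4A, C/EBP and FOXA letters and less often CTCF letters, while NFI letters did not differ beyond the interval (1.92% there, difference -0.02, -0.60 to 0.47). HNF4A was in 0.397% of those regions (difference 1.74, 1.37 to 2.06), C/EBP in 6.32% (10.2, 9.13 to 11.3) and FOXA in 3.05% (7.28, 6.44 to 8.06), with the sign on 19 of 19 autosomes each. CTCF was in 5.16% of them (-3.19, -4.04 to -2.44). In windows of 40 to 50% GC, with 497 of those regions, C/EBP (20.9% and 10.7%, difference 10.2, 7.02 to 12.9) and FOXA (13.0% and 6.64%, 6.40, 3.71 to 8.49) were still higher in members, and CTCF was lower (1.06% and 2.41%, -1.36, -3.13 to -0.29), while the intervals for HNF1 (1.03, -0.61 to 2.02), HNF6 (2.35, -0.03 to 4.12) and NFI (-0.46, -2.02 to 0.40) included 0. Against intragenic regions with all 3 nucleases, the intervals of the differences for FOXA (9.86%), C/EBP (15.9%), HNF4A (1.88%) and HNF6 (5.25%) included 0, although for C/EBP the difference of 0.62 points (-0.29 to 1.53) was 1.34 (0.27 to 2.41) in windows of 400 bp and 1.13 (0.22 to 2.05) in windows centred on the bases of all 3 nucleases. HNF1 was higher in members (1.90% there, 0.36, 0.01 to 0.72, on 11 of 19 autosomes), and so was CTCF (1.13% there, 0.84, 0.53 to 1.15, on 16 of 19 autosomes).

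**Figure D4:**
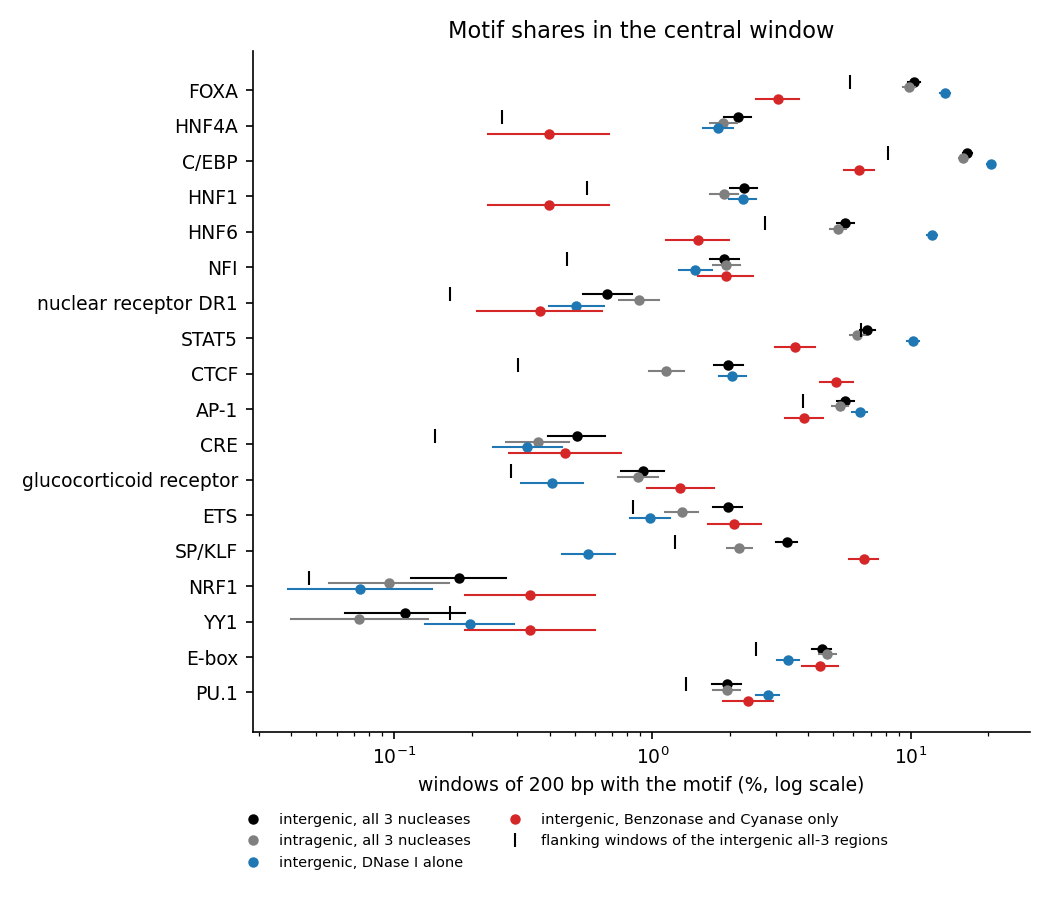
Percent of 200 bp windows with each of the 18 motifs (x axis, log scale), with Wilson 95% intervals as lines, for the 4 kinds of region, and ticks for the flanking windows of the members. HNF4A stands at 2.14% in members against 0.263% in the flanks, and CTCF is highest, 5.16%, in regions with Benzonase and Cyanase without DNase I.

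The members spread over all distances from genes. The median distance to the nearest protein-coding TSS was 31.3 kb (quartiles 10.9 and 82.5 kb). Of the members, 1434 (12.2%) lay 1 to 5 kb away, 3146 (26.7%) 5 to 20 kb, 2805 (23.8%) 20 to 50 kb, 1953 (16.6%) 50 to 100 kb, 2245 (19.05%) 100 to 500 kb and 202 (1.71%) over 500 kb. Regions with DNase I alone lay farther, at a median of 49.4 kb. With distance the mean GC content of members went from 47.9% at 1 to 5 kb to 41.4% over 500 kb, CpG islands from 6.62% (5.45 to 8.03%) to 0.495% (0.0874 to 2.75%) and CTCF letters from 2.999% (2.23 to 4.01%) to 1.38% (0.974 to 1.95%) at 100 to 500 kb. Over 500 kb the CTCF share, 0.495% (0.0874 to 2.75%), had an interval that met that of the nearest bin. FOXA letters went the other way, from 8.65% (7.30 to 10.2%) at 1 to 5 kb to 12.7% (11.3 to 14.1%) at 100 to 500 kb.

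A member was assigned to the gene with the nearest TSS where that lay within 100 kb, which placed 9338 members (79.2%) at 4765 of 21416 protein-coding genes, or 22.2% of genes. At least 3 members fell to 1066 genes, or 4.98%. The nearest gene is not always the one an enhancer acts on. Of 63 hepatocyte genes, 47 (74.6%, 62.7 to 83.7%) had a member and 27 (42.9%) had at least 3, and 62 of the 63 had a TSS inside a region open to all 3 nucleases, as had 49% of all genes and all 20 genes of a ubiquitous list. Eligible intergenic sequence lay more than 1 kb from every protein-coding TSS and outside protein-coding transcript bodies. For genes, only the part within 100 kb of the nearest TSS was counted, 717 Mb for all genes. The 178 members of the hepatocyte genes amounted to 68.6 per Mb of it, against 13.0 per Mb for all genes. Regions with DNase I alone were nearest 30 of the same 63 genes (47.6%, against 22.6% of all genes), at 20.04 per Mb against 11.2 for all genes.

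Among regulators of the hepatocyte, Cebpa had 12 members, Cebpb 9, Foxa2 9, Ppara (the receptor that drives fatty acid oxidation) 8 and Nr5a2 (a receptor of bile acid genes) 5. The 12 members of Cebpa lay between 1735 and 30420 bp from its TSS, 9 of them downstream, and ranged from 38.5 to 58.8% GC. Only 1 region at Cebpa was open to DNase I alone. Of the secreted proteins, Apob had 9, Alb 7 and Trf (the iron carrier transferrin) 5. All 7 members at Alb lay upstream, at 3094, 10322, 12550, 21096, 29184, 35035 and 45809 bp, and no region with DNase I alone was assigned to it. Their hotspots were 514 to 1490 bp wide in Cyanase, 534 to 1538 bp in Benzonase and 725 to 1413 bp in DNase I.

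The enzymes Cyp7a1 (the rate-limiting step of bile acid synthesis), Cyp8b1 (which makes cholic acid), Cyp1a2 (a drug-metabolising P450) and Tat had 6 members each, and Insig2 had 5. The 6 at Cyp8b1 lay within 10152 bp of its TSS, and 1 of them was the narrowest member of all, at 367 bp, 4013 bp downstream. At Cyp7a1 the members lay 2680 to 35990 bp away, and DNase I was the widest in 5 of 6. At Tat, 5 of 6 lay upstream, from 2119 to 10395 bp, and 1 lay 13659 bp downstream.

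The lists for the other liver cell types were short and gave lower shares with wide intervals. Only the Kupffer cell interval lay wholly below that of the hepatocyte genes (62.7 to 83.7%). Of 11 Kupffer cell genes (resident macrophages), 1 had a member (9.09%, 1.62 to 37.7%), which was Clec4f, while 9 of the 11 (81.8%, against 22.6% of all genes) had a region with DNase I alone, 15 in all. The hepatocyte genes showed the reverse, with 178 members and 52 DNase I regions. Of 12 sinusoidal endothelial genes 6 had a member (50%, 25.4 to 74.6%). There were 4 at Stab2 (a scavenger receptor of these cells), 3 at Kdr (a receptor of VEGF) and 3 at Gata4 (an endothelial transcription factor in liver). Of 12 stellate cell genes 5 had a member (41.7%, 19.3 to 68.0%), with no gene above 2. Of 10 bile duct genes 6 had a member (60%, 31.3 to 83.2%), led by Sox9 (the duct transcription factor) with 7, and Epcam had 3. As lists for other tissues, 4 of 19 neuron genes (21.1%) and 5 of 20 skeletal muscle genes (25%) had a member, of which only Neb (a giant muscle protein) had 3. Shares of 21.1% and 25% are near the 22.2% of all genes.

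Of 20 ubiquitous genes 6 had a member (30.0%), yet their density was 52.5 per Mb, carried by Actb (cytoplasmic actin) with 8, Eef1a1 (translation elongation) with 7 and Ywhaz (a 14-3-3 protein) with 5. Among all genes, those with a TSS in a region open to all 3 nucleases had a member in 27.2% (2855 of 10485) and the others in 17.5% (1910 of 10931). Whether a cell type, the activity of a gene or the space around it set these counts was not tested.

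**Figure D5:**
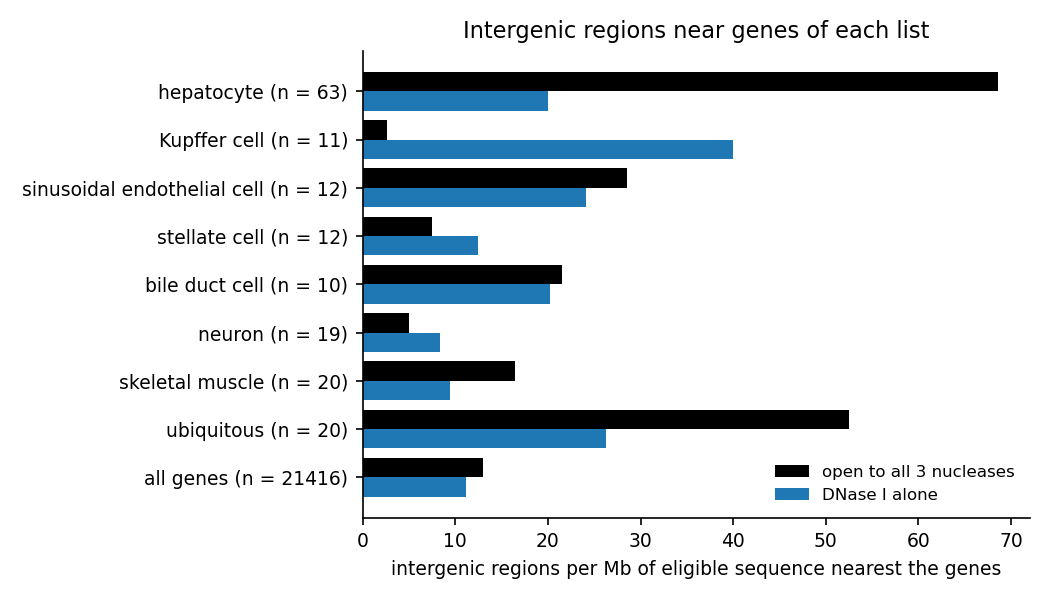
Intergenic regions per Mb of eligible sequence within 100 kb of the nearest TSS (x axis), assigned to the genes of each list. Bars are regions open to all 3 nucleases (black) and to DNase I alone (blue), and n is the number of genes. Hepatocyte genes stand at 68.6 and 20.04 per Mb and all genes at 13.0 and 11.2.

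The 12 genes with most members were led by the uncharacterised 3930402G23Rik with 14, followed by 1810011O10Rik, Cebpa, Svil (an actin-binding protein) and Vegfa (the main growth factor of blood vessels) with 12 each. Then came Bcl6 (a transcriptional repressor), Dusp6 (a phosphatase of ERK kinases), Gm10293, Ptgfr (a prostaglandin receptor), Ptpn1 (a phosphatase of the insulin receptor), Rab11fip4 (a partner of Rab11 in membrane traffic) and S1pr1 (a sphingosine phosphate receptor) with 11 each. All but Gm10293 and Ptgfr had a TSS in a region open to all 3 nucleases. At Vegfa 9 of 12 members held a liver motif in the central window, including HNF4A letters at 33737 and 36184 bp downstream. At Dusp6 1 of 11 did, and DNase I was widest in 9 of the 11. At Ptgfr all 11 lay upstream and were AT-rich, at 37.4 to 44.0% GC. At Ptpn1 all 11 lay upstream at 50.3 to 57.6% GC.

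Members gathered in clusters. Joined over gaps under 12500 bp, 6503 members (55.2%) lay in 2362 clusters of 2 or more, and 222 clusters held at least 5. The median gap between neighbours was 32.7 kb. Regions with DNase I alone, which were slightly more numerous, had 37.9% in clusters, 47 clusters of at least 5 and a median gap of 72.8 kb. The largest cluster held 13 members over 49.2 kb (chr15:88658008-88707169) between Pim3 (a growth kinase, nearest to 7) and Creld2 (a chaperone of the endoplasmic reticulum, nearest to 6). It was followed by 12 over 44.4 kb near Ptpn1 (chr2:167648413-167692788), 65039 to 108300 bp from its TSS. Clusters of 11 lay 162900 to 222183 bp from Gadd45g (a stress response gene, chr13:52104947-52165025), near Abcd3 (a peroxisomal transporter) and Arhgap29 (chr3:121554832-121610136) and at Cebpa (chr7:35892502-35935656). The mean GC content of these 5 clusters ran from 44.8% at Abcd3 to 55.4% at Pim3.

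Per Mb of eligible intergenic sequence with no upper limit of distance to a TSS, 1442 Mb in all, there were 8.17 members. The density ran from 5.84 on chromosome 14 to 12.9 on chromosome 19, a 2.21-fold range. Across the 19 autosomes the density went with that of protein-coding genes (Pearson's r 0.590, a description).

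The label intergenic rests on protein-coding transcripts of the annotation alone. Noncoding transcript bodies overlapped 1101 members (9.34%), and 435 (3.69%) touched an annotated exon of any kind. A noncoding TSS lay within 1 kb of 451 members (3.83%, 3.50 to 4.19%), against 6.38% of intragenic regions with all 3 nucleases (difference -2.56, -3.09 to -2.02), 2.13% of intergenic regions with DNase I alone (1.70, 1.27 to 2.13) and 5.77% of those with Benzonase and Cyanase alone (-1.95, -2.86 to -1.11). With the TSS inside the region the last difference was -0.47 (-1.14 to 0.12). By type, 140 members stood at processed transcripts, 134 at lincRNAs, 77 at small RNAs, 60 at pseudogenes, 34 at miRNA genes and 33 at noncoding transcripts of protein-coding genes. The miRNA genes included Mir192 and Mir194-2, which encode liver-rich miRNAs. They also included Mir31, Mir203, Mir375 and the group Mir291b, Mir292, Mir293, Mir294 and Mir295, and no tissue pattern was tested across them. The long noncoding genes included Malat1 and Meg3.

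Some of these starts belong to proteins. Of the 403 genes of noncoding type at members, 208 had an entry of the same symbol in RefSeq (GRCm38), and 13 of these were protein coding there, which touched 15 members. One was Cebpd, the gene of C/EBP delta, which the annotation lists as a pseudogene. The region over it (chr16:15886436-15888389, 1954 bp, 62.3% GC) held the longest CpG island lying wholly inside a member, at 1525 bp, 67.7% GC and a ratio of observed to expected CpG of 0.903 (chr16:15886804-15888328). By the rule it was intergenic, with Mzt2 as the nearest protein-coding gene at 22974 bp.

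CpG islands touched 465 members (3.95%, 3.61 to 4.31%), more than intragenic regions (1.90%, difference 2.05, 1.64 to 2.48) and regions with DNase I alone (0.139%, 3.81, 3.46 to 4.18), and fewer than regions with Benzonase and Cyanase alone (8.64%, -4.70, -5.76 to -3.71), each with the same sign on 19 of 19 autosomes. Members with an island differed from the rest in several ways. They were wider (median 1154 against 805 bp), richer in GC (56.8% against 46.8%) and nearer a TSS (median 17.8 against 32.1 kb). A noncoding TSS lay within 1 kb of 27.3% of them against 2.86%, SP/KLF letters were in 28.2% against 2.29%, and FOXA letters were in 1.51% against 10.7%. The 232 members with CTCF letters were narrow (median 684 against 817 bp) and had FOXA letters in 4.74% against 10.4%, and none of the 232 held HNF4A letters, which allows a share of up to 1.29%.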

How the data were processed

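DNA cut by Benzonase or Cyanase in frozen liver and by DNase I in nuclei of fresh liver had been sequenced and aligned to mm9 with Eland or Bowtie. After the libraries of a nuclease were pooled (7 listed samples, 3 lists), hotspots were called by the authors. The paper states a threshold on tag density and an FDR of 0%. The deposited lists hold 60910 Benzonase, 57675 Cyanase and 72286 DNase I hotspots, more than the paper counts for each nuclease. Whether they were called with that threshold is unknown. The deposited lists hold chromosome, start and end only, so depth per hotspot and spread between samples are unknown. Whether the starts count from 0 was taken from the format, and printed starts may be off by 1 bp.

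Here, hotspots sharing at least 1 bp were merged and compared with GENCODE M1 transcripts and the NCBIM37 genome sequence, which is mm9. The members, gene lists and motifs were chosen with earlier results of these data known. GC content was taken over the region and the 5000 bp on each side, motifs over the central 200 bp on both strands and over windows 2000 bp away. CpG islands were runs of at least 200 bp, over 50% GC and with an observed to expected ratio over 0.6. Shares carry Wilson and differences Newcombe 95% intervals, and differences of means normal 95% intervals, with the sign counted over 19 autosomes. No permutation or list test was run. Genes were named if among the 12 with most members, or with at least 5 members on the hepatocyte list or 3 on another; regions by most liver motifs near hepatocyte genes, central CTCF match or longest island. Windows on chromosome 18 were left out of the sequences, those with HNF4A letters included. Chromosomes X and Y were not part of the rule. Alternatives covered the merging, the distances, the windows and the islands. Functions were checked on simulated intervals and sequences. Python 3 with numpy, numba and matplotlib was used.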

Additional observations from a re-analysis of the deposited data

Results flagged for a closer look

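Chromosome X was outside the rule, and 289 of its 3499 regions (8.26%) met the rest of it, against 13.0% of autosomal regions. These 289 regions entered no comparison, and with 1 list per nuclease there was no control to set them against.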

How the results depend on the processing

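Under 16 alternatives and 1 restriction to windows of 40 to 50% GC, added after seeing the data, 389 of 450 values for 68 results kept their direction and their side of the interval. The number of members ran from 9147, without the narrowest hotspots of each list (under its first width quartile), to 12127 with no width limit, and was 10594 with all annotated transcripts. At 40 to 50% GC the differences from regions with DNase I alone turned for FOXA (0.88 percentage points), C/EBP (1.17), NFI (-0.58), E-box (-0.19) and ETS (-0.038), and CTCF was lower (-1.23). The difference from regions with Benzonase and Cyanase alone turned for YY1 at 40 to 50% GC (0.038) and without the narrow hotspots (0.032). The GC difference from intragenic regions was 0.039 in the central 150 bp and -0.14 over 5 kb from a TSS, where its interval included 0. The HNF4A difference from regions with DNase I alone left 0 over 5 kb from a TSS (0.40), with an overlap of 50% of both hotspots (0.51), with the window centred on the bases of all 3 nucleases (0.53), at 40 to 50% GC (0.53) and in windows of 400 bp (0.59). The noncoding TSS difference from regions with Benzonase and Cyanase alone was -0.47 with the TSS inside the region, and its interval included 0. The cause of these changes was not tested. No paired analysis was possible because each nuclease had 1 pooled list. Without tag counts, weak and strong hotspots could not be told apart.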

Other observations

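Words of 8 bp found in at least 100 member windows were ranked after the data had been seen. The rank went by how much commoner a word was in the central window of members than in the flanking windows. The ratio was taken with a small constant added to the flanking count. The first word was CAAAGTCC, which is part of the HNF4A letters. It was in 448 member windows (3.80%) against 0.916% of flanking windows, 4.13 times the share, and in 3.29% of regions with DNase I alone. AAAGTCCA followed at 3.95 times, with 3.49% of members and 3.40% of regions with DNase I alone. TTGCACAA, which fits the C/EBP letters, stood at 3.81 times. It was in 2.32% of members and in more of the regions with DNase I alone (2.82%). CCCGCCTC, a GC-rich word outside the motifs searched, stood at 3.81 times, with 1.21% of members against 0.172% of regions with DNase I alone. The words overlap one another and were picked by this ratio, so they are a description.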
